A study of Drosophila melanogaster with 3 samples.

Results

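The cuticle protein genes of Drosophila melanogaster were examined for places bound by svp-GFP at the start of metamorphosis. Members were the protein-coding genes whose symbol in the dm6 annotation begins with Cpr, Ccp84, Lcp, Edg78, Edg84, Edg91 or Twdl, a rule that uses no measured value. The rule took in 121 of 13968 protein-coding genes on the chromosome arms. One of these, named plainly Cpr, encodes NADPH-cytochrome P450 reductase, an electron donor of P450 enzymes and no cuticle protein, and it is described apart. The other 120 genes are 70 of the Cpr family, 25 of the Twdl family, 15 Lcp genes, 7 Ccp84 genes and 3 Edg genes. They have 3 pseudogenes with the same symbol prefixes, which were not counted.

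All samples belong to 1 group: a transgenic fly line that carries svp, which encodes a COUP-TF type nuclear receptor with no known ligand, joined to GFP at the C-terminal end. Chromatin of whole white prepupae of both sexes was sheared by sonication and precipitated with an antibody to GFP, in 3 biological replicates numbered in the labels. Whole animals were used, so epidermal cells, which make cuticle, cannot be told apart from all other cells. No control library and no animal without GFP is among the samples used here, and binding of svp cannot be told apart from chromatin that any precipitation would enrich.

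Insect cuticle is a layered material of chitin fibres and proteins laid down by the epidermis, and a new cuticle is made at each moult and again in the prepupa. Cpr, Lcp, Ccp84 and some Edg genes encode proteins with the Rebers and Riddiford consensus, a domain that binds chitin, while Twdl genes encode the Tweedle proteins, a separate family in which mutations change body shape. Many of these genes lie in tandem arrays and are switched on in short pulses by the ecdysone cascade, in which Edg84A is a known target of the nuclear receptor FTZ-F1. COUP-TF receptors are known to bind AGGTCA and repeats of it.

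The sequences at 4 of the 12 replicated member peaks show what DNA lay under them, and the promoter of Edg84A shows a nuclear receptor motif at a member with almost no peak. Windows of 101 bases centred on the summit, the deposited point of highest signal within a peak, are given from the RefSeq sequence of genome release 6 (dm6), on the plus strand. Capitals mark exact matches to AGGTCA, the GATA factor motif GATAAG and the GAGA factor motif GAGAG on either strand. Variants of these motifs were not marked. The other member peaks, among them the strongest one and the only one at a cuticle protein gene with AGGTCA near its summit (at Cpr49Ac), are not printed, so the absence of AGGTCA below comes with the choice of peaks. The windows at Cpr72Eb and Cpr62Ba held no exact match to these motifs, and the window in the intron of Cpr73D held a reversed GATAAG. The window in an intron of the reductase gene Cpr held repeated copies of reversed GAGAG.
Cpr72Eb, chr3L:16364294-16364394: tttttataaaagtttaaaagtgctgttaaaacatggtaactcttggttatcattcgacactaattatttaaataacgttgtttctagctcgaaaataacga
Cpr62Ba, upstream of the gene, chr3L:1832042-1832142: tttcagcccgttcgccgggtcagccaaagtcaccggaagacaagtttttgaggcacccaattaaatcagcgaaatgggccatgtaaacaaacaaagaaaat
Cpr73D, chr3L:16941395-16941495: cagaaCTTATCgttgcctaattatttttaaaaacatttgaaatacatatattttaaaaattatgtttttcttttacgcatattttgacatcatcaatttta
Cpr, chr2L:6339367-6339467: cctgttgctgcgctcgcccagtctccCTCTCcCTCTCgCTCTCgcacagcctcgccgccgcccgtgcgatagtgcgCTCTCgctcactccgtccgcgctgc
The promoter of Edg84A runs from 150 bp before to 50 bp after its transcription start, on the plus strand, which is the strand of the gene. Capitals mark TGACCTTG, the reverse complement of the FTZ-F1 motif CAAGGTCA, which starts 100 bp before the start of transcription, and the TATA box TATAAA.
Edg84A, chr3R:6684295-6684495: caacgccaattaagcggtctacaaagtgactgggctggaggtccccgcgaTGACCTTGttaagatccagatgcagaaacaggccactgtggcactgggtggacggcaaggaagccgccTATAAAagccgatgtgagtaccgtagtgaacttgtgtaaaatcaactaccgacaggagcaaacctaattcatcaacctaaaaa

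The files are peak lists on dm6. Each replicate's list and a list from the 3 replicates pooled hold 30000 peaks, a fixed number, so the share of genes reached by a list and the rank of a peak within it were used and not the number of peaks. A list thresholded by the irreproducible discovery rate (IDR), a measure of how well peaks repeat between replicates, holds 5443 peaks. Peaks were ranked by their deposited signal value, whose scale no source used here states, so signal values were compared only within 1 list. Sequencing depth is unknown. The intervals below are exact 95% binomial intervals and cover counting error over genes only.

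Few cuticle protein genes had a replicated peak at their promoter. A promoter peak is one whose summit lies within 1000 bp of an annotated transcription start site (TSS) of the gene. In the IDR-thresholded list 5 of 120 cuticle protein genes had one (4.17%, interval 1.37% to 9.46%), or 6 of 121 with the reductase, against 16.1% of all protein-coding genes. These 5 genes were Cpr47Ec, Cpr47Ed, Cpr49Ac, Cpr62Ba and Cpr72Eb. Cuticle protein genes are short, with a median length of 970 bp against 2164.5 bp over all protein-coding genes, and 90.8% of them have a single TSS against 73.5%. Among genes with 1 TSS and a length of 400 to 2000 bp, 3 of 97 cuticle protein genes (3.09%, interval 0.642% to 8.77%) had an IDR-thresholded promoter peak, against 8.41% of all such genes, a share inside that interval.

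In the longer lists, replicate 2 excepted, the cuticle protein genes came nearer to the background in percentage points. The pooled list had a promoter peak at 31 of 120 cuticle protein genes (25.8%), against 36.2% of all genes. In replicate 1 it was 38 of 120 (31.7%) against 33.4%, in replicate 2 it was 20 (16.7%) against 43%, and in replicate 3 it was 36 (30%) against 41.4%. The mean share was 26.1% ± 8.22 for cuticle protein genes and 39.3% ± 5.11 for all genes (SD, n = 3 replicates), and it was lower for cuticle protein genes in 3 of 3 replicates. An exact two-sided paired permutation test over the replicates gave p = 0.25, the smallest value that 3 replicates allow, and 0.3 after Benjamini-Hochberg adjustment over the 6 quantities compared in this way. Replicate 2, which gave the most promoter peaks over all genes, gave the fewest at cuticle protein genes. Without replicate 2 the mean was 31.4% over the 121 genes of the symbol rule and 37.4% over all genes.

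**Figure D1:**
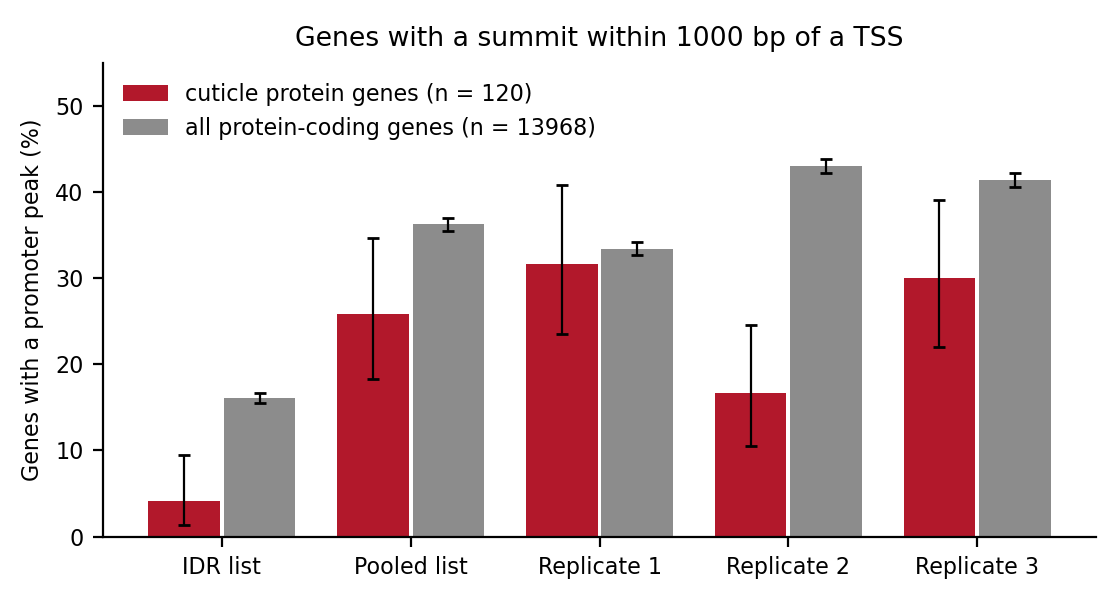
Share of genes with a promoter peak (y axis, percent) in the IDR-thresholded, pooled and 3 replicate lists, for 120 cuticle protein genes and all 13968 protein-coding genes; error bars are exact 95% binomial intervals over genes. The shares lie far apart in the IDR-thresholded list (4.17% and 16.1%) and close together in replicate 1 (31.7% and 33.4%).

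The mean difference from all genes was −13.1 percentage points in the full replicate lists. It was −12.6 in the top 5000 peaks and −17.6 in the top 10000. As a part of the share of all genes it was larger among these stronger peaks. Restricted to the 5000 peaks with the highest signal, the replicates had a promoter peak at 6, 4 and 3 of 120 cuticle protein genes, a mean of 3.61% ± 1.27 against 16.2% ± 2.15 for all genes. Over the top 10000 peaks the means were 6.39% ± 1.73 and 24.0% ± 4.11. Each was lower for cuticle protein genes in 3 of 3 replicates (exact paired permutation p = 0.25, adjusted 0.3). Among the genes with 1 TSS and 400 to 2000 bp the full lists gave 23.4% ± 8.33 for cuticle protein genes and 29.8% ± 3.17 for all such genes. There the share was lower for cuticle protein genes in 2 of 3 replicates, and replicate 1 ran the other way with 30.9% against 26.2% (exact paired permutation p = 0.5, adjusted 0.5).

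All 5 cuticle protein genes with an IDR-thresholded promoter peak belong to the Cpr family, in which they are 5 of 70 (7.14%, interval 2.36% to 15.9%). None of 25 Twdl genes had one, which allows a share of up to 13.7%, and none of 15 Lcp genes, which allows up to 21.8%. None of 7 Ccp84 genes and none of 3 Edg genes had one either. The 16.1% of all genes is inside the interval of the Lcp, Ccp84 and Edg families, and the 8.41% of genes with 1 TSS and 400 to 2000 bp is inside the interval of every family. In the full lists of replicates 1, 2 and 3, promoter peaks were at 33.4%, 43% and 41.4% of all genes. They were at 22, 15 and 23 of 70 Cpr genes (31.4%, 21.4% and 32.9%) and at 11, 5 and 9 of 25 Twdl genes (44%, 20% and 36%). The Lcp genes had 2, 0 and 3 of 15, the Ccp84 genes 2, 0 and 1 of 7, and the Edg genes 1, 0 and 0 of 3. Twdl genes were thus reached about as often as Cpr genes when weak peaks were counted, but only by peaks outside the top 5000. The means were 33.3% ± 12.2 for Twdl genes, 28.6% ± 6.23 for Cpr genes and 39.3% ± 5.11 for all genes. Whether families differ was not tested.

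The member peaks of the IDR-thresholded list number 12, of which 2 lie at the reductase gene and 10 at cuticle protein genes. By place, 9 are promoter peaks, 1 lies in a gene body and 2 lie in gaps between neighbouring members of a tandem array. For 11 of the 12 the nearest TSS of any protein-coding gene is that of a member. Their signal values run from 125 to 388, in a list whose values run from 120 to 3228 with a median of 218, and the best of them ranks 1188.

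The strongest promoter peak was at Cpr72Eb (3L, 16364899 to 16365707, plus strand), a Cpr family gene in an array with Cpr72Ea and Cpr72Ec. The peak (3L, 16364116 to 16364571) is intergenic, with its summit 555 bp upstream of the TSS, a signal value of 324 and rank 1595 of 5443. In the replicates its signal was 106, 140 and 80.5, at ranks 1330, 1681 and 2079 of 30000. It was within the top 5000 of every replicate, and the replicate summits lay within 73 bp of each other.

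Cpr49Ac (2R, 12386666 to 12390057, plus strand) had 2 IDR-thresholded promoter peaks. The stronger (2R, 12386336 to 12386479) has its summit 241 bp upstream of the TSS, signal 262 and rank 2193, and is the one cuticle gene peak with AGGTCA within 50 bp of the summit. Its replicate signals were 68.3, 133 and 64.7, at ranks 2498, 1810 and 2800. The weaker peak (2R, 12386397 to 12386852) has its summit 41 bp upstream, signal 129 and rank 5055, and lay in the top 5000 of 1 replicate.

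Cpr62Ba (3L, 1824129 to 1831783, minus strand), which has 2 TSSs, had a peak before each of them. The peak in its intron (3L, 1829516 to 1829971) lies 802 bp upstream of the inner TSS and the intergenic one (3L, 1831864 to 1832319) lies 309 bp upstream of the outer TSS, and both have a signal of 160. The intergenic peak had ranks 3318, 4989 and 4600 in the replicates, and the intronic peak 3423, 5698 and 4491. All of these ranks are below those of Cpr72Eb.

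Cpr47Ec and Cpr47Ed, neighbours in an array of 7 genes, had weaker peaks. The peak at Cpr47Ec (2R, 11258823 to 11259278) lies 925 bp downstream of the TSS, past the 3′ end of this short gene, with signal 131 and rank 4997 of 5443. The peak at Cpr47Ed (2R, 11262431 to 11262886) lies 853 bp upstream of the TSS, with signal 125 and rank 5224. Replicate ranks were 3589, 8501 and 6323 at Cpr47Ec and 4461, 7620 and 5743 at Cpr47Ed. Each was in the top 5000 of replicate 1 alone.

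The remaining IDR-thresholded peaks at cuticle protein genes were not at promoters. Cpr73D (3L, 16939100 to 16957689), the longest member at 18590 bp, had an intronic peak (3L, 16941217 to 16941672) 1504 bp from its nearest TSS, with signal 148 and ranks 4986, 4623 and 4827 in the replicates. A peak between Cpr49Ab and Cpr49Ac (2R, 12384898 to 12385185) was the strongest of all member peaks, with signal 388 and rank 1188, and ranks 1643, 890 and 1500 in the replicates. Its nearest TSS, at 1151 bp, is that of CG8501 and not of a cuticle protein gene. A peak between Cpr47Ef and Cpr47Eg (2R, 11276811 to 11277266) lay 1406 bp from the TSS of Cpr47Eg, with signal 157 and replicate ranks 4156, 4433 and 5068.

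A promoter peak in all 3 full replicate lists was found at 13 of 120 cuticle protein genes (10.8%), or 14 of 121 with the reductase, against 21.5% of all genes. A total of 67 cuticle protein genes (55.8%) had a promoter peak in none of the 3 lists, against 41.8% of all genes. A promoter peak in a single list was at 25 cuticle protein genes (20.8%), about the share of all genes (20.1%). Of these 25, 13 had it in replicate 1, 1 in replicate 2 and 11 in replicate 3, a split not counted for all genes. The 13 genes were the 5 of the IDR-thresholded list and Cpr49Ah, Cpr66D, TwdlT, Cpr31A, Cpr64Ac, TwdlG, TwdlE and TwdlQ, of which the last pair, named after their values were seen, had no pooled promoter peak. At 9 of the 13 a summit of each replicate lay within 200 bp of the others.

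Among these genes outside the IDR-thresholded list, Cpr49Ah came closest to it. Its summit lay at −651, −652 and −638 bp from the TSS in replicates 1, 2 and 3, negative values being upstream, with signal 39.0, 24.9 and 19.1 at ranks 4923, 12565 and 10999, and a pooled signal of 92.9. The lowest signal of the IDR-thresholded list is 120. Cpr66D had signals of 25.4, 23.4 and 19.6 and a pooled signal of 72.6, with summits 749, 783 and 732 bp downstream of the TSS. TwdlT, a Tweedle gene, had signals of 20, 12.4 and 10.8 with summits at −632, −628 and −576 bp. Each of these 3 genes thus had its peak at nearly the same place in every replicate, and far from the TSS.

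The other genes of this set had weak or scattered peaks. Cpr31A had ranks 9274, 25656 and 13866 with a pooled signal of 44.6, and Cpr64Ac had ranks 14672, 22703 and 27800 with a pooled signal of 41.5. TwdlG had ranks 11656, 19917 and 22948, with best summits spread over 1072 bp. The spread was 901 bp at TwdlQ, 864 bp at Cpr64Ac and 386 bp at TwdlE, so at these 4 genes the 3 lists do not mark 1 place.

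**Figure D2:**
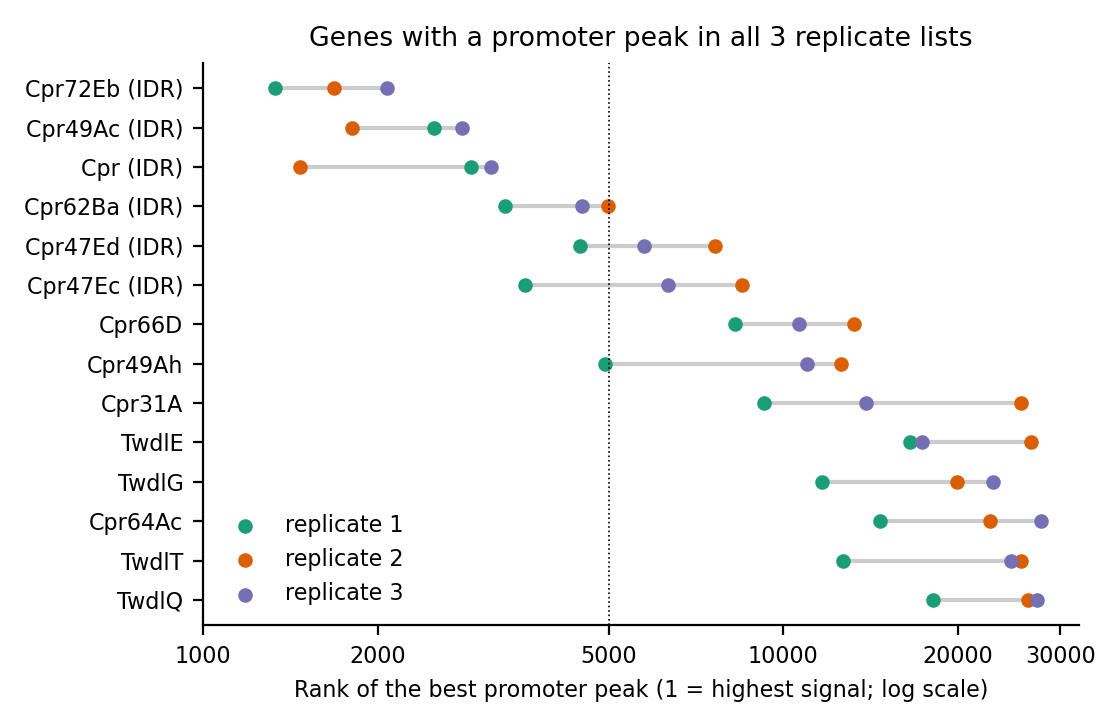
Rank of the best promoter peak in each replicate list (x axis, log scale, 1 is the highest signal of 30000) for the 14 genes of the symbol rule with a promoter peak in all 3 lists; points are replicates, IDR marks genes with an IDR-thresholded promoter peak and the dotted line is rank 5000. Cpr72Eb, Cpr49Ac, Cpr62Ba and the reductase gene Cpr lie left of the line in every replicate. Cpr49Ah and Cpr66D lead the genes outside the IDR-thresholded list.

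Where a cuticle protein gene had a promoter peak, the peak ranked low. The median rank percentile, on a scale where 0 is the highest signal, was 54.9, 60 and 64 for promoter peaks of cuticle protein genes in replicates 1, 2 and 3, against 32.5, 34.1 and 33.0 for promoter peaks of all genes. The means were 59.6 ± 4.57 and 33.2 ± 0.844 (SD, n = 3), and the ranges of the replicates did not overlap (exact paired permutation p = 0.25, adjusted 0.3). Peaks of cuticle protein genes also lay farther from the TSS than those of all genes, in a comparison not matched for gene length or number of TSSs. Within 250 bp of it were 20.4%, 16.1% and 19.1% of the promoter peaks of cuticle protein genes, a mean of 18.6% ± 2.20, against 38.7%, 43.8% and 39.9% for all genes, a mean of 40.8% ± 2.67 (exact paired permutation p = 0.25, adjusted 0.3).

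**Figure D3:**
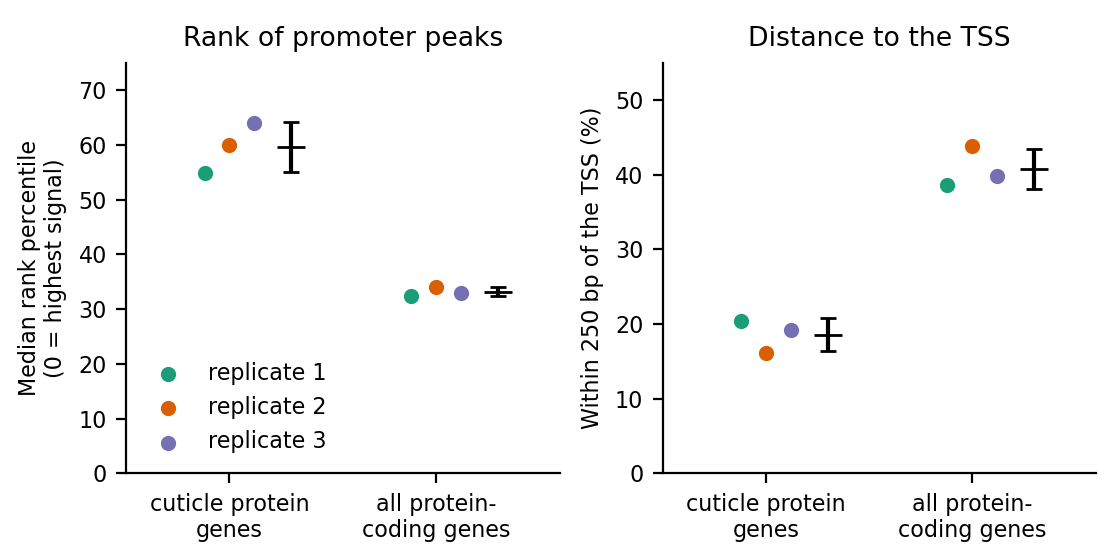
Left, median rank percentile of promoter peaks (y axis, 0 is the highest signal); right, share of promoter peaks within 250 bp of the TSS (y axis, percent); points are replicates and bars show mean ± SD of 3 replicates, for cuticle protein genes and for all protein-coding genes. In both plots the replicates of the groups do not overlap, with means of 59.6 and 33.2 on the left and 18.6% and 40.8% on the right.

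The share of member peaks that repeated between replicates differed from that of all peaks by less than the replicate spread. Over all promoter, body and gap peaks of members, 34.0% ± 9.22 were found in both other replicates, against 33.2% ± 0.797 of all peaks. Among peaks of rank 1 to 5000 the shares were 89.2% ± 9.57 for members and 83.5% ± 8.82 for all, and among ranks 20001 to 30000 they were 12.0% ± 8.17 and 9.48% ± 0.696. Cuticle protein genes were also farther from any IDR-thresholded summit, with a median distance of 20362 bp from the canonical TSS to the nearest one, against 10743 bp over all genes. By family the median distance was 14381 bp for Cpr, 28959 bp for Twdl, 40426 bp for Lcp and 70402 bp for Ccp84 genes, all above that of all genes, while the 3 Edg genes had a median of 6768 bp, below it.

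Most members sit in tandem arrays. Members at most 10 kb apart were chained, and 16 chains of 3 or more genes held 87 of the 121 genes in 0.233 Mb. Over these arrays, other genes between members included, IDR-thresholded summits had a density of 0.387 per 10 kb, against 0.394 over the chromosome arms. In the replicates it was 2.15, 1.55 and 2.49 per 10 kb, a mean of 2.06 ± 0.479 against 2.18 over the arms. All 9 IDR-thresholded summits of arrays lay in 4 of them: 3 in the array of Cpr47Ea to Cpr47Eg, 3 in Cpr49Aa to Cpr49Ad, 2 in Cpr62Ba to Cpr62Bc and 1 in Cpr72Ea to Cpr72Ec. The other 12 arrays had none. All 5 cuticle protein genes with an IDR-thresholded promoter peak were among the 87 in arrays (5.75%), beside 16.1% of all genes. None was among the 33 outside, which allows a share of up to 10.6%. The full replicate lists ran the other way. In replicates 1, 2 and 3 a promoter peak was at 29.9%, 13.8% and 26.4% of genes in arrays. Outside arrays the shares were 36.4%, 24.2% and 39.4%, beside 33.4%, 43% and 41.4% of all genes. Whether array genes differ from the others was not tested.

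Summit counts in the large arrays of Lcp, Ccp84 and Twdl genes differed between replicates. The array of 17 Lcp and Cpr genes from Lcp65Ag3 to Cpr65Az had 2, 1 and 8 summits over 31204 bp in replicates 1, 2 and 3, a density of 0.641, 0.320 and 2.56 per 10 kb beside 2.18 over the arms. The array of 12 Twdl genes from TwdlM to TwdlD had 5, 1 and 4, or 2.28, 0.456 and 1.82 per 10 kb. That of Edg84A and the 7 Ccp84 genes had 6, 1 and 3, or 2.93, 0.489 and 1.47 per 10 kb. Each of these 3 arrays was above the density of the arms in 1 replicate, and all were below it in replicate 2. Lcp1 to Lcp4, larval cuticle protein genes on 2R, had 1, 0 and 1. The array on the X chromosome from TwdlX to Twdlalpha had a summit in replicate 3 alone. The arrays of Cpr67Fa1 to Cpr67Fb and of Cpr78Ca to Cpr78Cc, which includes Edg78E, had none in any list. In the smaller arrays of Cpr49Ae to Cpr49Ah, Cpr64Aa to Cpr64Ad, Cpr65Ea to Cpr65Ec, Cpr76Ba to Cpr76Bd and TwdlF to TwdlV, the replicates had between 1 and 6 summits each and none was in the IDR-thresholded list.

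**Figure D4:**
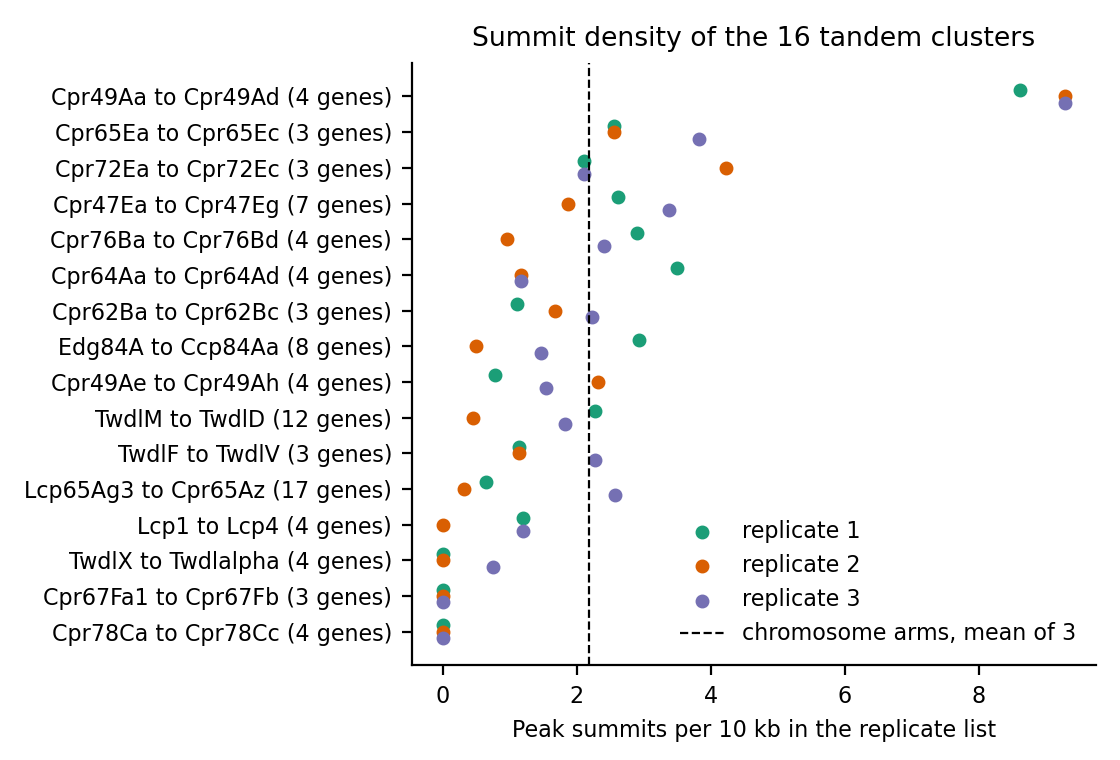
Peak summits per 10 kb (x axis) in each replicate list for the 16 tandem arrays of members, named by their first and last gene; points are replicates and the dashed line is the mean density over the chromosome arms, 2.18 per 10 kb. The array of Cpr49Aa to Cpr49Ad stands apart at 8.62, 9.29 and 9.29 per 10 kb, and the arrays of Cpr67Fa1 to Cpr67Fb and Cpr78Ca to Cpr78Cc are at 0 in every replicate.

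The array of Cpr49Aa to Cpr49Ad (2R, 12376626 to 12391699) was the densest of the 16 in every replicate. It held 13, 14 and 14 summits in replicates 1, 2 and 3 and 14 in the pooled list. For 8, 8 and 10 of the replicate summits the nearest TSS was that of a cuticle protein gene, and for the rest it was that of CG13155 or CG8501, which lie inside the array. Of these summits 3, 3 and 2 were in the top 5000. The summits gather before and along Cpr49Ac and between it and CG8501, while Cpr49Ab had none within 1000 bp of its TSS and Cpr49Aa had them in replicate 3 alone.

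**Figure D5:**
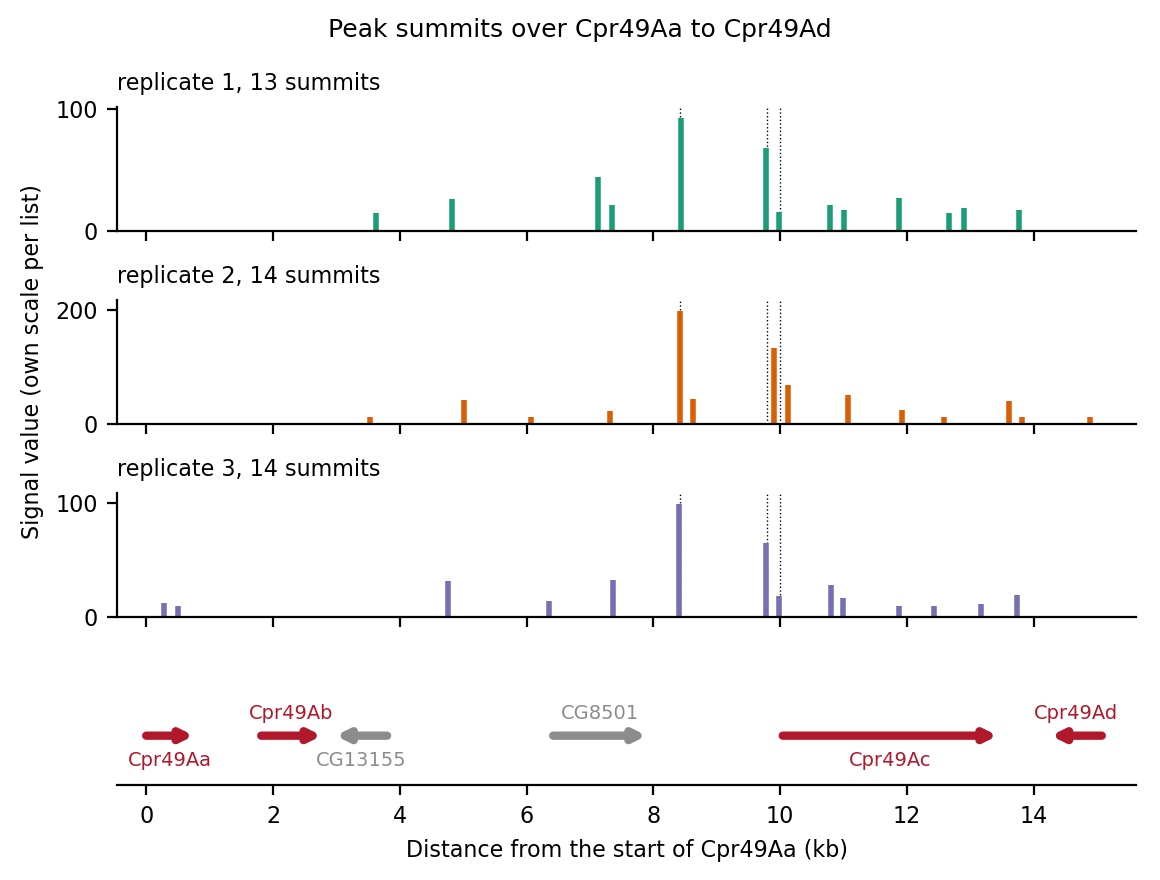
Peak summits over the array of Cpr49Aa to Cpr49Ad, with distance from the start of Cpr49Aa in kb on the x axis and the signal value on the y axis, on its own scale in each replicate; dotted lines mark the 3 IDR-thresholded summits and arrows below show the genes and their direction, members in red. The highest summit in every replicate lies between CG8501 and Cpr49Ac, with signals of 93.0, 198 and 98.7.

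The 3 Edg genes, whose transcripts respond to ecdysone in imaginal discs, had 1 promoter peak in replicate 1 and none in the other lists. All genes had shares of 33.4%, 43% and 41.4% in replicates 1, 2 and 3, and 3 genes are too few to set against these. Edg84A (3R, 6684445 to 6685157) had 1 peak, in replicate 1 alone, with its summit 340 bp upstream of the TSS, signal 21.5 and rank 10946. That summit lies upstream of the printed promoter and its FTZ-F1 motif. Edg78E (3L, 21296763 to 21297803) and Edg91 (3R, 17610856 to 17611511) had no promoter or body peak in any list.

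Some members have near-identical copies, at which reads cannot be placed with certainty. Over 1000 bp each side of the TSS the median share of 31-base words found once in the genome was 100% for cuticle protein genes and for all genes. It was under 90% at 15 of 120 cuticle protein genes, against 720 of all 13968 genes. Of the 15, those named here were chosen after their values were seen. It was lowest at Lcp65Ab1 (26.3%), Lcp65Ab2 (27.3%), Cpr65Ax1 (35.1%) and Cpr65Ax2 (36.0%). Of the 15, promoter peaks were listed at TwdlB in the pooled list and replicates 1 and 3, and at Cpr65Ax2 and Lcp65Aa in replicate 3. How the authors treated such reads is unknown here, and their part in the low counts was not tested. None of the 15 was among the 5 genes with an IDR-thresholded promoter peak.

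Nuclear receptor motifs were rare in the promoters of these genes, as in others. In the window from 250 bp before to 50 bp after the TSS, AGGTCA was found on either strand at 8 of 120 cuticle protein genes (6.67%) and at 5.82% of all genes. By family these were 4 of 25 Twdl genes, 3 of 70 Cpr genes and 1 of 3 Edg genes, with none among the Lcp and Ccp84 genes. The longer CAAGGTCA, which contains AGGTCA, was found at Edg84A alone (0.833%), against 0.501% of all genes. Direct and inverted repeats of AGGTCA with 1 base between, with 1 mismatch allowed, were found at no cuticle protein gene. Over all genes they were at 0.0501% and 0.0215%, so none would be looked for among 120 genes. Other spacings were not searched. Of the 8 genes with AGGTCA 1 had a pooled promoter peak (Cpr47Ed), against 30 of the 112 without it and 36.2% of all genes. A promoter peak in all 3 replicate lists was at 1 of the 8 and at 12 of the 112, beside 21.5% of all genes. The pooled summit at Cpr47Ed, 853 bp upstream of the TSS, lies outside the motif window. GATAAG was found at 6.67% of cuticle protein genes and 18.9% of all genes, and GAGAG at 33.3% and 30.2%.

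Within 50 bp of the 10 IDR-thresholded summits of cuticle protein genes, AGGTCA was found at 1 (Cpr49Ac), against 5.35% of all 5425 summits on the arms. GATAAG was at 1 (Cpr73D), against 11.2%, GAGAG at 1, against 14.0%, and TATAAA at 2, against 16.2%. With 10 summits, 1 match is the smallest share above 0 that could be seen.

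The reductase gene Cpr (2L, 6338836 to 6346280, plus strand) had a promoter peak in every list. In the IDR-thresholded list it had 2 overlapping IDR-thresholded promoter peaks, both intronic, at 6339189 to 6339644 with signal 282 and at 6339398 to 6339853 with signal 148. Its best promoter peak had signals of 61.1, 152 and 59.5 in the replicates, at ranks 2896, 1470 and 3142, and the summits lay within 37 bp of each other. Of the cuticle protein genes, Cpr72Eb and Cpr49Ac had ranks in the same range.

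Other genes of cuticle making and of the stage, from 4 lists written by hand, are set beside the same 16.1% of all genes. Of 20 epidermal and stage regulators 8 had an IDR-thresholded promoter peak, led by Hr3 (signal 734) and Eip75B (677), which encode nuclear receptors of the ecdysone cascade, and by Blimp-1 (341), a repressor that times prepupal genes. Of 10 genes in the list written for chitin synthesis and assembly 3 had one: sktl (202), nst (197) and Gfat2 (175). Of these nst and Gfat2 encode enzymes on the path to the chitin precursor, while sktl encodes no such enzyme. Of 13 pigmentation and tanning genes 2 had one, Pu (1117), which encodes GTP cyclohydrolase, and speck (147). Of 25 genes of chitin-binding and cuticle-modifying proteins 1 had one, Cht7 (319), a chitinase family gene. A promoter peak in all 3 replicate lists was at 12, 5, 3 and 5 genes of these 4 lists in the same order, beside 21.5% of all genes. The shares in the IDR-thresholded list were 40% for the regulators and 30% for the chitin synthesis list, sktl included. They were 15.4% for pigmentation and 4% for the chitin-binding list, beside 4.17% for the cuticle protein genes. These shares were not matched for gene length or number of TSSs. Among the regulators length runs from 603 bp (Pburs, 1 TSS) to 113744 bp (Eip75B, 7 TSSs), and br has 9 TSSs. No test was made of these lists.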

How the data were processed

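ChIP-seq peak lists in narrowPeak format on dm6 were used; the dm3 lists were not used. Per the deposited manifests, each replicate list came from the alignments of its own library and 1 control file common to the 3 replicates, the pooled list from all 3 alignments, and the IDR-thresholded list from these lists. The aligner, peak caller, IDR threshold and read depth are named in none of the sources used here. The signal value and the −log10 q-value of each peak are as deposited by the authors, and only the signal was used, for ranks within a list. All peaks ended within the arms of the reference sequence. Summits were assigned to genes of the Ensembl 115 annotation with Python 3.11.15, numpy 2.4.6, scipy 1.17.1 and matplotlib 3.10.9, and a step tested on simulated data returned 100% of peaks placed at genes. All genes include the members. Gaps were at most 10 kb. The canonical TSS was used for motif windows.

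Since there is 1 group, no comparison of conditions was made, and p-values are exact paired permutation tests over 3 biological replicates. Alternatives changed the window, the list, the rank limit, the gap and the replicates. Members, gene lists and motifs were chosen with earlier results of these data known. Named genes were all members with an IDR-thresholded peak, up to 10 others with the highest pooled promoter peak present in all replicates (6 qualified), the Edg genes, Cpr, each array and up to 3 genes of each other list. Of the list symbols, rtz, CHS-2, Dat and tan were not matched.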

Additional observations from a re-analysis of the deposited data

How the results depend on the processing

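Of 36 alternatives 23 left a value in place, within 1.5 times for counts and within 1 SD for means, and 13 moved it. Values here are over all 121 genes of the symbol rule. The count with an IDR-thresholded promoter peak, 6, was 3 with a 500 bp window, 3 among peaks above the median signal and 32 in the pooled list, and 4 without any 1 replicate. Beside the counts of 3, 3 and 32 all genes stood at 12.6%, 10.1% and 36.2%. Without replicate 1, 2 or 3 the share of all genes fell too, from 16.06% to 12.19%, 10.82% and 10.98%. The count of 4 is 3.31% of the symbol rule genes, beside 4.96% for the count of 6. The mean share with a replicate promoter peak, 26.7%, was 4.41% in the top 5000, 7.16% in the top 10000, 16% with a 500 bp window and 45.5% with a 2000 bp window, where all genes had 16.2%, 24.0%, 30.9% and 50%. It ran from 24.0% to 31.4% without 1 replicate. Without replicate 2 it was 31.4% against 37.4% of all genes, a smaller gap than the 26.7% against 39.3% with all 3 replicates. The 12 distinct IDR-thresholded peaks became 4 above the median signal. With the same filter on top 5000 peaks they became 7 without replicate 1 and 8 without replicate 2 or 3. The 14 genes with a promoter peak in all 3 lists became 4 in the top 5000, 6 in the top 10000, 5 with a 500 bp window and 28 with a 2000 bp window, beside 10.5%, 15.1%, 15.9% and 30.6% of all genes. The causes were not tested. The median rank percentile of member peaks, 53.7, ran from 51.1 to 55.5 without 1 replicate. Arrays held 87 genes with a 10 kb or 20 kb gap and 73 with a 5 kb gap. The labels give 1 group, so no fit with a replicate block between groups could be made, and replicates were paired only between cuticle protein genes and all genes of the same list. Depth is unknown, and a gene without a peak may have one below the lowest signal listed.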

Other observations

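A TATA box was common in the promoters of cuticle protein genes. TATAAA lay within the window from 250 bp before to 50 bp after the TSS, on either strand, at 94 of 120 cuticle protein genes (78.3%), against 45.3% of all protein-coding genes. On the strand of the gene and 40 to 20 bp before the TSS, positions chosen after the data were seen, it was found at 71 of 120 cuticle protein genes (59.2%), against 7.90% of all genes. All 3 Edg genes had it there, as did 11 of 15 Lcp, 5 of 7 Ccp84, 15 of 25 Twdl and 37 of 70 Cpr genes. The GC content of the promoter window had a median of 44.2% at cuticle protein genes and 38.2% at all genes.

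At Cpr73D the promoter peaks differed between replicates. In replicate 2 a peak with signal 94.9 and rank 2984 lay 304 bp upstream of its outer TSS, in an intron of the neighbouring gene Ogdh. Replicates 1 and 3 had no peak there, and replicate 1 had no promoter peak at this gene. The best promoter peak of replicate 3, at rank 11512, lay elsewhere, 656 bp downstream of the outer TSS. Replicate 2 also had a summit near that place, at rank 10109.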
